A study of Mus musculus with 2 samples.

Results

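Neurotrophins are secreted proteins that keep neurons alive and guide their growth, and the RNA of 3 of them and of 4 of their receptors was measured in the adrenal glands of newborn mice. The members are the ligand genes Bdnf, Ntf3 and Ntf5 and the receptor genes Ntrk2, Ntrk3, Ngfr and Sort1, chosen by symbol and matched by Ensembl identifier, 7 of the 43346 genes in the deposited tables. All 7 were found in both libraries. The samples are total RNA from mice of strain B6NCrl at postnatal day 0, with no treatment or allele named in the labels. There were 2 libraries of 1 group, each from 10 ng of RNA from the 2 adrenals of 1 pup, so both glands of an animal were pooled. Pup 2 and pup 1 carry the same number for the pregnant animal and the same donor identifier in the labels, and their sex was not collected. A difference between the pups therefore rests on 1 library each and no p-value is given.

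Each neurotrophin binds a receptor tyrosine kinase of the Trk family and also the unrelated receptor p75, the product of Ngfr. BDNF and neurotrophin 4 (gene Ntf5) act through TrkB (Ntrk2), and neurotrophin 3 (Ntf3) mainly through TrkC (Ntrk3). Truncated TrkB and TrkC lack the kinase, bind ligand all the same and are common outside neurons. Sortilin (Sort1) pairs with p75 to bind unprocessed proneurotrophins and also sorts proteins inside the cell. In the adrenal medulla and the sympathetic nervous system these genes are known from neurons, Schwann cells and their precursors.

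The libraries held 40799446 estimated counts in pup 2, against 41504306 in pup 1, and markers matched the labelled tissue. All 7 markers of the steroidogenic cortex reached 1 TPM (a level per transcript length, scaled to the same total in each library) in both pups, with summed levels of 17156 TPM in pup 2, against 6435 TPM in pup 1. All 8 chromaffin markers did so too, with 4901 TPM in pup 2, against 2320 TPM in pup 1. RNA of other organs was present and unequal between the libraries. Liver markers were the highest of these lists, with all 5 at 1 TPM or more in both pups and sums of 2116 TPM in pup 2, against 2748 TPM in pup 1. Of 5 stomach markers, 1 (Cym) reached 1 TPM in both pups, with Gkn1 at 0 in pup 2, and they summed to 5.91 TPM in pup 2, against 144 TPM in pup 1. Of 6 skeletal muscle markers, 4 reached 1 TPM in both pups, with Myh1 at 0 in pup 1, and they summed to 237 TPM in pup 2, against 57.8 TPM in pup 1. No kidney marker of 6 reached 1 TPM in both pups, and they summed to 9.92 TPM in pup 2, against 1.09 TPM in pup 1, with Umod at 0 in pup 1. Of 5 fat markers, 1 reached 1 TPM in both pups, with Lep at 0 in pup 1, and they summed to 32.6 TPM in pup 2, against 5.40 TPM in pup 1.

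Ntrk2 and Ntrk3 each have transcripts that differ in where the coding sequence ends. Every annotated full-length and truncated form of Ntrk2 and Ntrk3 in the deposited transcript tables was placed by its stop codon, and the coding bases that set the forms apart are shown because the main result on the receptors turns on them. The sequences are GENCODE M21 transcripts on mm10, written 5′ to 3′ on the sense strand, with the shared or flanking coding bases in lower case and the bases that set the named form apart from the other form (for an insert, from the form without one) in capitals. The truncated Ntrk2 transcript (ENSMUST00000109838) leaves the full-length one at an exon of its own and adds 38 coding bases, the stop codon included. These coding bases lie at chr13:58932023-58932060 (plus strand). The first 60 coding bases with which the full-length transcript (ENSMUST00000079828) continues, in capitals, lie at chr13:58985802-58985861.
Ntrk2 truncated tail: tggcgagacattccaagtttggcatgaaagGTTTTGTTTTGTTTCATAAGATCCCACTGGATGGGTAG
Ntrk2 full-length continuation: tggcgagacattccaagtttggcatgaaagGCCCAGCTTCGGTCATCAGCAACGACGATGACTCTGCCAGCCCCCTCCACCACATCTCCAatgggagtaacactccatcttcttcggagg
The truncated protein has 476 residues and the full-length protein 821, and the first 464 codons are shared.

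In Ntrk3 the truncated transcript (ENSMUST00000039438) adds 254 coding bases from a pair of exons. Their coding bases lie at chr7:78304292-78304426 and chr7:78302629-78302747 (minus strand). The first 60 coding bases with which the full-length transcript without an insert (ENSMUST00000039431) continues, in capitals, lie at chr7:78260355-78260414. Another pair of full-length transcripts (ENSMUST00000193002 and ENSMUST00000195262) carry an insert after codon 711, within the kinase part of TrkC, of 14 and 39 codons. The shorter insert lies at chr7:78204103-78204144, and the longer one joins those bases to chr7:78229487-78229561.
Ntrk3 truncated tail: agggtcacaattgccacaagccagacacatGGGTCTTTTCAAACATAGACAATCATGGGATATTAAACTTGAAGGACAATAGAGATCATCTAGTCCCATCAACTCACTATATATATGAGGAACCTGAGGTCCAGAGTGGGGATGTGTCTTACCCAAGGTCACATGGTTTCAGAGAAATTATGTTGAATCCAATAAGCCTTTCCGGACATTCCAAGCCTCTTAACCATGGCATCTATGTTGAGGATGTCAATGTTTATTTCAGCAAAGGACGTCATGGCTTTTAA
Ntrk3 full-length continuation: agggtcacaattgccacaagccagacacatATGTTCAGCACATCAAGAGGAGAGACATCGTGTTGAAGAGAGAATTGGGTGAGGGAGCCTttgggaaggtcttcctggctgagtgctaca
Ntrk3 shorter insert: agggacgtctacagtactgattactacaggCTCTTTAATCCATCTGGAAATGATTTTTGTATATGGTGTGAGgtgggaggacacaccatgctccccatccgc
Ntrk3 longer insert: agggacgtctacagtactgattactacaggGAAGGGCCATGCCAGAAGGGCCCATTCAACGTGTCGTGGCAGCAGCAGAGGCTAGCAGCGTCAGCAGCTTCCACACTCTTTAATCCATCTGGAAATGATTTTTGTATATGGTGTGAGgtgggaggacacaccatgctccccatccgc
The truncated TrkC protein has 612 residues, of which 528 codons are shared with the 825 residues of the full-length protein without an insert. The longer insert, in capitals, ends in all the bases of the shorter one.

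**Figure D1:**
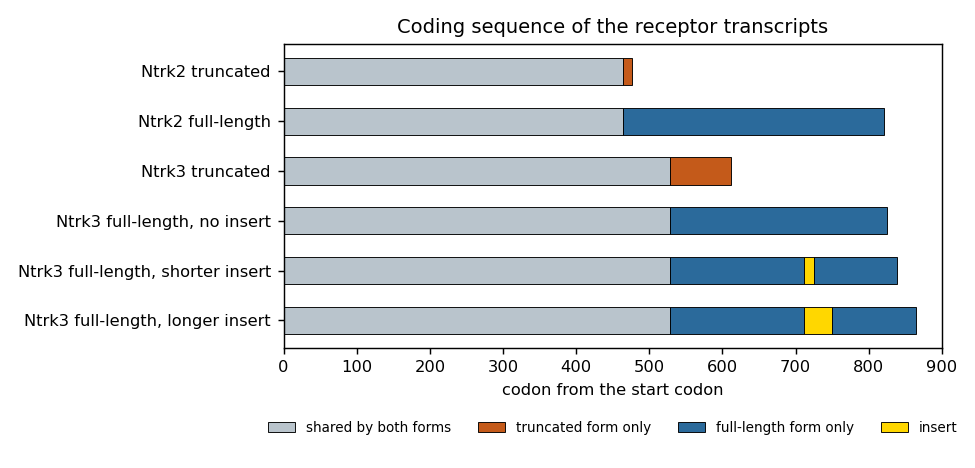
Coding sequence of 6 Ntrk2 and Ntrk3 transcripts to scale, in codons from the start codon. Truncated Ntrk2 ends 12 codons after the 464 shared ones, and truncated Ntrk3 ends 84 codons after the 528 shared ones.

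The level of the ligands was low. Bdnf (chromosome 2, 109674700 to 109727007, plus strand, mm10), which encodes brain-derived neurotrophic factor, had 0.400 TPM in pup 2 (quantifier's interval 0.370 to 0.608), against 0.290 TPM in pup 1 (0.271 to 0.457). Its intervals overlapped, and the 51 reads in pup 2 and 46 in pup 1 gave a log2 ratio of scaled counts of 0.06 with a counting interval of -0.54 to 0.67. A difference in Bdnf was therefore not detectable at this depth. Ntf5 (chromosome 7, 45413695 to 45417179, plus strand), the gene of neurotrophin 4, had 0.290 TPM in pup 2 (0.174 to 0.445), against 0.310 TPM in pup 1 (0.194 to 0.443). Its log2 ratio of -0.43 had a counting interval of -1.41 to 0.51, which includes 0.

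Ntf3 was the ligand that differed between the pups. Ntf3 (chromosome 6, 126101412 to 126166910, minus strand), the gene of neurotrophin 3, had 1.32 TPM in pup 2 (0.999 to 1.70), against 0.290 TPM in pup 1 (0.171 to 0.473). The intervals did not overlap. From 56 counts in pup 2 and 14 in pup 1, the scaled level was 3.77-fold higher in pup 2, a log2 ratio of 1.88 with a counting interval of 1.05 to 2.87. The skeletal muscle, fat, kidney, steroidogenic cortex and chromaffin markers above were also higher in pup 2 in summed TPM. So were endothelial markers, which summed to 383 TPM in pup 2, against 236 TPM in pup 1. By scaled counts all 7 cortex markers (median 1.18), 5 of 7 endothelial markers (median 0.71) and 6 of 8 chromaffin markers (median 0.44) had log2 ratios above 0. The part of any of these cells in the Ntf3 level was not tested. In bulk tissue, fewer cells of a type and less RNA per cell cannot be told apart. Of the Ntf3 transcripts in the tables, the one with the shorter coding sequence (ENSMUST00000050484) held 32.3% of the gene's TPM in pup 2, against 100% in pup 1. The other (ENSMUST00000112244), which starts its coding sequence in an upstream exon and encodes 271 residues in place of 258, had 0.90 TPM in pup 2 (0.318 to 1.41), against 0 TPM in pup 1 (upper bound 0.192). For the shorter one the intervals overlapped, with 0.43 TPM in pup 2 (upper bound 1.01), against 0.29 TPM in pup 1 (0.0791 to 0.421). By posterior means the shorter one held 36.2% in pup 2, against 78.0% in pup 1, so the 100% from 14 counts was not firm.

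Ngfr was the most abundant member in both pups. Ngfr (chromosome 11, 95568818 to 95587735, minus strand) had 10.5 TPM in pup 2 (9.72 to 10.9), against 27.2 TPM in pup 1 (25.9 to 27.7), or 18.8 ± 11.8 TPM (SD, n = 2). Among 21461 protein-coding nuclear genes it stood at percentile 64.1 in pup 2 and 83.3 in pup 1. The pups lay far apart, with a log2 ratio of scaled counts of -1.76 and a counting interval of -1.85 to -1.66, a level 3.38-fold higher in pup 1. The gene has 1 transcript in the tables, so its level did not depend on a division between forms. By TPM the level of Ngfr was 5.22 times the summed level of the 3 ligands in pup 2 and 30.5 times in pup 1.

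Ntrk2 and Sort1 stood next in order. Ntrk2 (chromosome 13, 58806569 to 59133970, plus strand) had 4.75 TPM in pup 2 (4.40 to 4.95), against 6.48 TPM in pup 1 (6.10 to 6.69), and its log2 ratio of scaled counts was -0.82 (-0.93 to -0.72). Sort1 (chromosome 3, 108284082 to 108361511, plus strand) had 4.13 TPM in pup 2 (3.69 to 4.64), against 4.46 TPM in pup 1 (4.10 to 4.81). The intervals of Ntrk2 did not overlap between the pups and those of Sort1 did. By scaled counts Sort1 was lower in pup 2, with a log2 ratio of -0.63 (-0.77 to -0.50), whereas by TPM the log2 ratio was -0.11. Across genes, the log2 ratio by TPM lay above that by scaled counts by a median of 0.39, so a ratio by one measure cannot be set beside a ratio by the other.

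Ntrk3 was the lowest of the receptors. Ntrk3 (chromosome 7, 78175959 to 78738012, minus strand) had 1.57 TPM in pup 2 (1.29 to 2.03), against 2.53 TPM in pup 1 (2.12 to 2.99), without overlap. The log2 ratio of scaled counts was -0.97 with a counting interval of -1.31 to -0.64, from 119 counts in pup 2 and 220 in pup 1. In pup 2 the order was Ngfr, Ntrk2, Sort1, Ntrk3, Ntf3, Bdnf and Ntf5, and the intervals of Ntrk2 and Sort1, of Ntrk3 and Ntf3, and of Bdnf and Ntf5 overlapped. In pup 1 the 4 receptors had the same order with no overlap between neighbours, and the 3 ligands, from 0.290 to 0.310 TPM, could not be ordered. At a threshold of 1 TPM in both pups, 4 of the 7 members passed, the receptors Ngfr, Ntrk2, Sort1 and Ntrk3, against 60.4% of protein-coding nuclear genes.

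**Figure D2:**
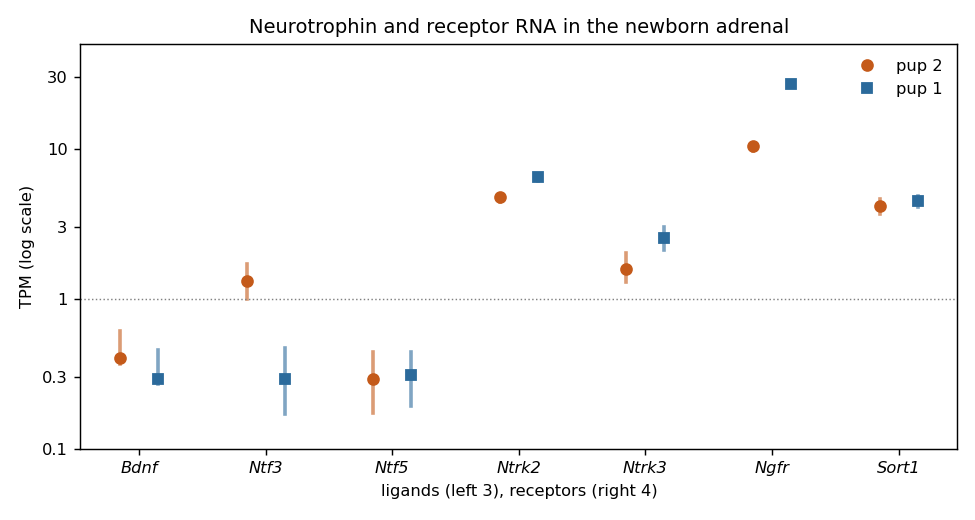
TPM of the 7 members on a log scale, pup 2 as orange circles left of pup 1 as blue squares, with bars for the quantifier's interval and a dotted line at 1 TPM. Ngfr is highest in both pups, at 10.5 TPM in pup 2, against 27.2 TPM in pup 1, and Ntf3 is the ligand whose bars do not overlap between the pups.

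Almost all Ntrk2 RNA was assigned to the truncated receptor. The truncated transcript, which ends before the kinase, had 4.48 TPM in pup 2 (4.13 to 4.69), against 6.26 TPM in pup 1 (5.88 to 6.47). The full-length, kinase-bearing transcript had 0.27 TPM in pup 2 (0.192 to 0.350), against 0.22 TPM in pup 1 (0.162 to 0.289). The truncated form thus held 94.3% of the gene's TPM in pup 2, against 96.6% in pup 1, or 95.5% ± 1.58 (SD, n = 2). It was 16.7 times as abundant as the full-length form in pup 2 and 28.3 times in pup 1. The full-length intervals overlapped between the pups and the truncated ones did not. The estimated counts were 74.4 for the full-length form in pup 2 and 75.2 in pup 1, against 1015 for the truncated form in pup 2 and 1743 in pup 1.

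Ntrk3 RNA was divided more evenly, with a higher percent listed for the kinase-bearing forms together than for the truncated one. The full-length transcripts together held 53.3% of the gene's TPM in pup 2, against 47.2% in pup 1, the truncated transcript 22.0% in pup 2, against 27.5% in pup 1, and transcripts with no complete coding sequence 24.6% in pup 2, against 25.3% in pup 1. Of the coding forms alone, the truncated share was 29.3% in pup 2, against 36.8% in pup 1, or 33.0% ± 5.34 (SD, n = 2). The truncated Ntrk3 transcript had 0.35 TPM in pup 2 (0.133 to 0.561), against 0.69 TPM in pup 1 (0.394 to 1.00), with overlapping intervals. In pup 1 the full-length percent includes the form with the shorter insert, at 0.66 TPM (4.70e-05 to 0.732). The full-length form without an insert had 0.53 TPM there (0.303 to 0.810), below the truncated one, with overlapping intervals. By posterior means the truncated share of the coding forms averaged 32.6% over the pups. The truncated share of coding TPM was higher in Ntrk2 than in Ntrk3 in both pups.

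Full-length TrkC transcripts are annotated without and with an insert. The form without an insert had 0.64 TPM in pup 2 (0.357 to 0.793), against 0.53 TPM in pup 1 (0.303 to 0.810). The form with 14 more codons had 0.20 TPM in pup 2 (0.0159 to 0.388), against 0.66 TPM in pup 1 (4.70e-05 to 0.732). The form with 39 more codons was listed at 0 counts in both pups, with an upper bound of 0.259 TPM in pup 2, against 0.606 TPM in pup 1. The interval of the form with the shorter insert reached down to 0.0159 TPM in pup 2 and almost to 0 in pup 1. The share of the insert forms was therefore not settled at this depth in either pup.

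**Figure D3:**
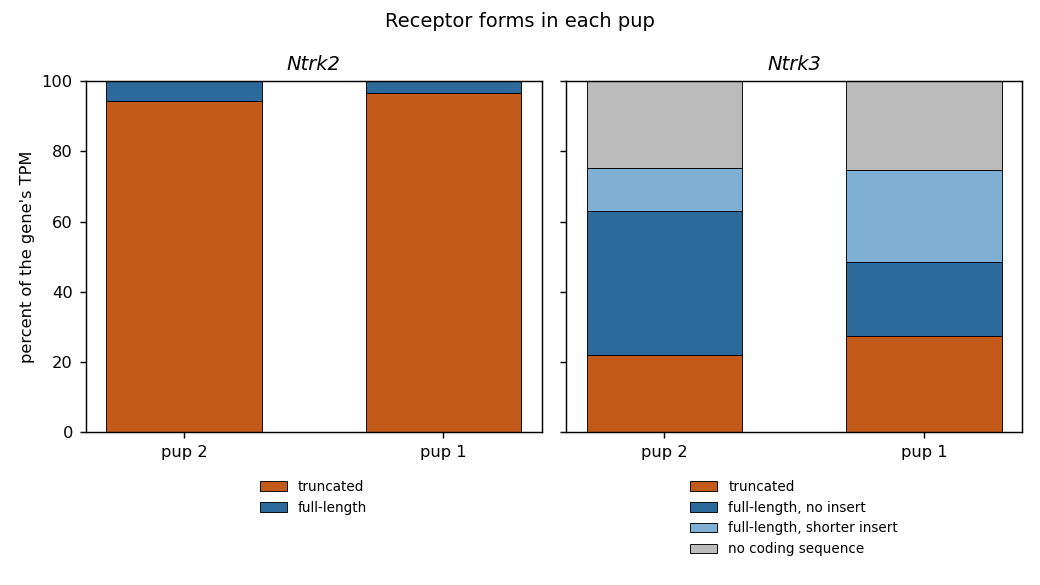
Percent of TPM of Ntrk2 (left) and Ntrk3 (right) held by each transcript, in pup 2 left of pup 1, as stacked bars that sum to 100. The truncated form fills 94.3% of Ntrk2 in pup 2 and 96.6% in pup 1, but 22.0% of Ntrk3 in pup 2 and 27.5% in pup 1.

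The division between forms differed from gene to gene in how far the pups matched. The most abundant Ntrk2 transcript was the truncated one in both pups. For Ntrk3 the highest listed percent was that of the full-length form without an insert in pup 2, 40.9%, and of the truncated form in pup 1, 27.5%. In each pup the intervals of the truncated form, of both full-length forms with counts and of a transcript with no complete coding sequence overlapped. Which of them led was therefore not settled in either pup. Among 9896 genes with over 1 transcript and at least 1 TPM in both pups, the leading transcript differed in 10.9%. For Sort1 the leading transcript (ENSMUST00000102632) held 79.2% in pup 2, against 89.7% in pup 1, a gap over 10 points, as in 24.3% of those genes. Of the 11 Bdnf transcripts in the tables, ENSMUST00000111045 held 66.7% in pup 2, against 77.6% in pup 1 and ENSMUST00000111050 33.3% in pup 2, against 22.4% in pup 1. By posterior means the first of these held 28.5% in pup 2, against 40.2% in pup 1, so the division of so few reads between the Bdnf transcripts was not settled.

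Relative to the bulk of genes, 2 of the 7 members lay over 2-fold apart between the pups, Ntf3 higher and Ngfr lower in pup 2. Of the 18670 genes whose counts averaged at least 10, 15.8% passed 2-fold, 6.03% higher and 9.77% lower in pup 2. Among genes with a mean count from 10 to under 100, as Ntf3 has, the share was 35.0%, and from a mean count of 100 upwards, as Ngfr has, it was 9.13%. The median log2 ratio of the members was -0.63, against 0.00 over all genes. The members Ntf5, Ntrk2, Ntrk3, Ngfr and Sort1 had ratios below 0, 5 of 7 against 49.9% of all genes, and all 5 turned above 0 when libraries were scaled by spike-in counts, which shifted the median of all genes by 2.57.

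The receptor genes had ratios below 0, and so did most markers of sympathetic neurons, glia, stroma, capsule, mural cells, leukocytes and liver. The part of these cells in the receptor levels was not tested. All 9 sympathetic neuron markers were over 2-fold lower in pup 2 by scaled counts, their log2 ratios having a median of -2.02, and summed to 448 TPM in pup 2, against 1368 TPM in pup 1. The 9 Schwann and glia markers had log2 ratios from -1.58 to -0.09 (median -0.79), of which that of Gfap, the lowest in size, had a counting interval of -0.63 to 0.46 that includes 0, and they summed to 97.2 TPM in pup 2, against 181 TPM in pup 1. None of these 18 was at 0. The 7 stroma markers were all lower in pup 2 too (median -0.71) and summed to 1922 TPM in pup 2, against 2269 TPM in pup 1. The 4 capsule markers were all lower in pup 2 as well and summed to 156 TPM in pup 2, against 269 TPM in pup 1. Liver markers had a median of -0.82, with all 5 below 0. Of 6 leukocyte markers 4 were below 0 (median -0.85), and they summed to 674 TPM in pup 2, against 1121 TPM in pup 1. Of 7 mural markers 6 were below 0 (median -0.56), and they summed to 85.2 TPM in pup 2, against 102 TPM in pup 1. Stomach markers summed to less in pup 2 as well, as given above.

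By the size of the ratio over these 2 libraries, the marker genes with a mean count of 100 or more that lay nearest to Ngfr (-1.76) were Isl1, a transcription factor of sympathetic neurons, at -1.64, and Fabp7, a glial fatty acid binding protein, at -1.58. Nearest to Ntrk3 (-0.97) were Lum, a stroma proteoglycan, at -0.98 and Foxd3, a neural crest and glial precursor factor, at -0.94. Nearest to Ntrk2 (-0.82) were the liver genes Apoa2 and Alb, both at -0.82, and nearest to Sort1 (-0.63) were C1qb of macrophages and Trf, both at -0.61. With 2 libraries a ratio is a single number, and the 84 marker genes that reached this count were compared. Below it, the fat marker Ucp1 lay nearer to Ngfr, at -1.67 from 5 counts in pup 2 and 16 in pup 1 (-3.57 to -0.25).

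**Figure D4:**
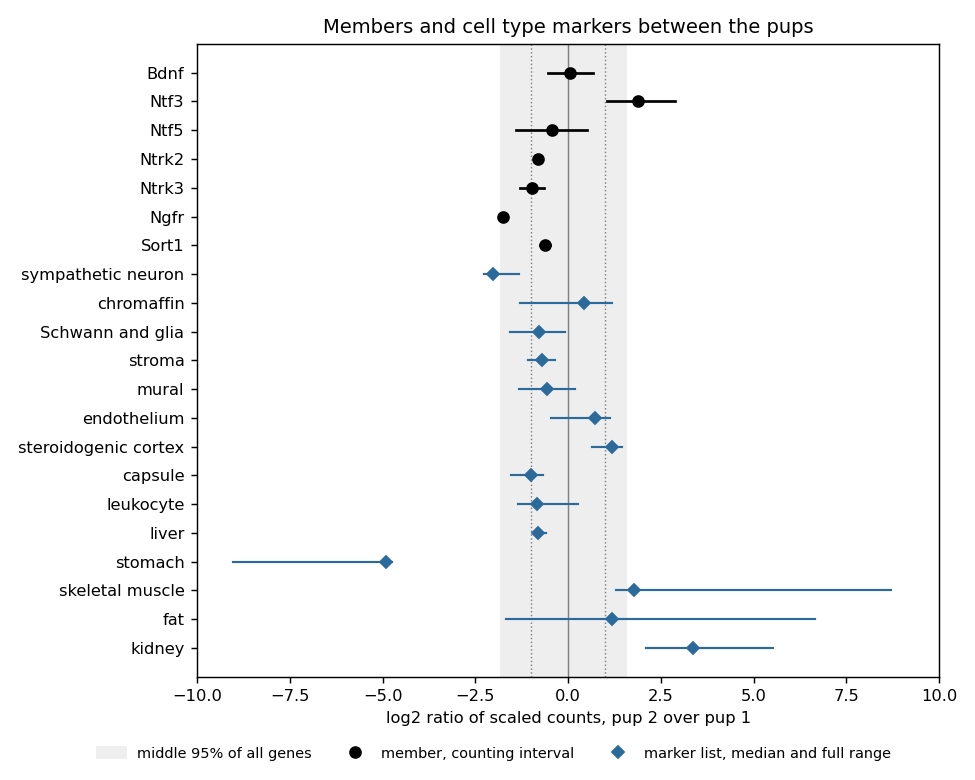
Log2 ratio of scaled counts, pup 2 over pup 1, of the 7 members (black, with counting intervals) and of 14 marker lists (blue, median and full range), over the middle 95% of all genes in grey and dotted lines at 2-fold. Ngfr lies at -1.76, and its counting interval of -1.85 to -1.66 does not hold the sympathetic neuron median of -2.02. The counting interval of Ntf3 (1.88, from 1.05 to 2.87) holds the medians of skeletal muscle (1.78), fat (1.19) and steroidogenic cortex (1.18). Ranges that reach past 8 or -9 rest on genes with 0 counts in a pup and the added count.

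Genes that process neurotrophins or pass on their signals were mostly present, and they lay over 2-fold apart about as often as all genes. Of 50 such genes found, 42 reached 1 TPM in both pups, against 60.4% of protein-coding nuclear genes. Enough counts for a ratio were present for 48, with a median of -0.01. Over 2-fold apart were 7 of these 48, 1 higher and 6 lower in pup 2, a share near the 15.8% of all genes. Of the genes that cut proneurotrophins, Pcsk5, a proprotein convertase, had 51.1 TPM in pup 2, against 19.9 TPM in pup 1, and its log2 ratio was 0.99. Plat, the tissue plasminogen activator gene, had 34.0 TPM in pup 2, against 26.7 TPM in pup 1 with a ratio of -0.04, and Plg, its substrate plasminogen, 16.8 TPM in pup 2, against 20.5 TPM in pup 1 with a ratio of -0.67. The 5 liver markers had log2 ratios from -0.82 to -0.61, and the part of liver RNA in the Plg level was not tested. Furin, another convertase of proneurotrophins, had 23.4 TPM in pup 2, against 10.6 TPM in pup 1, with a ratio of 0.76. None of the 7 genes of this list with enough counts was over 2-fold apart, and Mmp7, with 0 counts in pup 2 and 6 in pup 1, and Mmp3 fell under the count minimum.

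Co-receptors and relatives of sortilin had a median log2 ratio of -0.49 over 8 genes, 1 over 2-fold higher and 3 over 2-fold lower in pup 2. The most abundant were Nradd, a homologue of p75 without its ligand-binding part, with 27.9 TPM in pup 2, against 23.0 TPM in pup 1, Kidins220, a scaffold of Trk receptors and p75, with 11.9 TPM in pup 2, against 11.6 TPM in pup 1, and Sorcs2, a p75 partner of the sortilin family, with 7.81 TPM in pup 2, against 8.95 TPM in pup 1. Lower in pup 2 were Lingo1, a p75 and Nogo receptor partner, at 3.84 TPM in pup 2, against 7.15 TPM in pup 1 (log2 ratio -1.29, counting interval -1.48 to -1.11), Rtn4r, the Nogo receptor gene (-1.06, -1.61 to -0.55), and Sorcs1 (-1.02, -1.32 to -0.74). Sorcs3 was higher in pup 2 from 19 counts in pup 2 and 7 in pup 1 (1.29, 0.04 to 2.85).

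Adaptors of Trk receptors had a median log2 ratio of -0.04 over 15 genes, of which 14 reached 1 TPM in both pups. Shc1, which docks on the juxtamembrane site of Trk kinases, had 64.8 TPM in pup 2, against 65.6 TPM in pup 1, Crk 65.0 TPM in pup 2, against 54.0 TPM in pup 1, and Grb2, which links the receptors to Ras, 66.0 TPM in pup 2, against 48.8 TPM in pup 1. The neuronal relatives of Shc1 were over 2-fold lower in pup 2. Shc2 had 5.96 TPM in pup 2, against 11.8 TPM in pup 1 (log2 ratio -1.40, counting interval -1.52 to -1.27), and Shc3 had 5 counts in pup 2 and 20 in pup 1 (-1.98, -3.85 to -0.63).

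Adaptors of p75 were the most abundant of these lists. Bex3, a p75-associated death effector, had 403 TPM in pup 2, against 328 TPM in pup 1, Rhoa, a GTPase regulated through p75, 324 TPM in pup 2, against 214 TPM in pup 1, and Maged1, which binds p75, 276 TPM in pup 2, against 211 TPM in pup 1. Their log2 ratios were -0.09, 0.20 and 0.01, and none of the 8 genes found was over 2-fold apart. All 4 trafficking genes were within 2-fold too, led by the late endosome GTPase Rab7 (176 TPM in pup 2, against 124 TPM in pup 1), Snx1 (108 TPM in pup 2, against 80.6 TPM in pup 1) and Gipc1 (73.3 TPM in pup 2, against 67.0 TPM in pup 1), which binds Trk receptors.

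Genes that neurotrophins induce in neurons had log2 ratios on both sides of 0, 3 above and 3 below. Mcl1, a survival factor, had 66.1 TPM in pup 2, against 50.4 TPM in pup 1, Egr1 23.2 TPM in pup 2, against 29.4 TPM in pup 1, and Vgf, a neuropeptide precursor, 17.1 TPM in pup 2, against 8.24 TPM in pup 1, with log2 ratios of 0.01, -0.73 and 0.68. Nptx1, a neuronal pentraxin, was over 2-fold lower in pup 2, with 0.880 TPM in pup 2, against 2.41 TPM in pup 1 (-1.83, -2.11 to -1.57). All of these genes are also induced or expressed outside neurotrophin signalling.

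**Figure D5:**
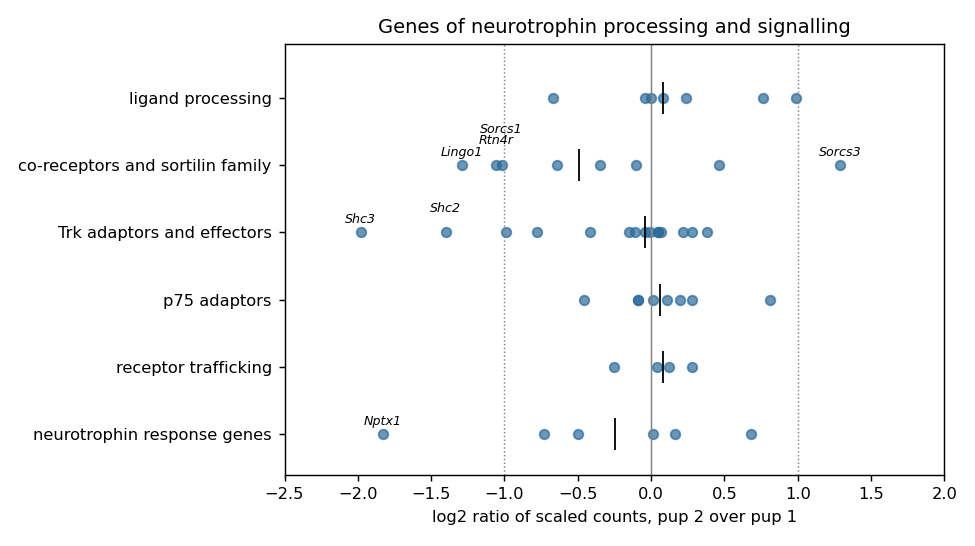
Log2 ratio of scaled counts, pup 2 over pup 1, of 48 genes of neurotrophin processing and signalling in 6 lists, with each list's median as a black bar, dotted lines at 2-fold and names for genes past them. Of the 7 named genes, Sorcs3 alone lies on the right, at 1.29.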

How the data were processed

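Total RNA-seq was measured in 2 libraries of newborn adrenal, grouped by the labels as 1 group with the pup number as replicate. Per the file headers, the authors deposited expected counts, which are estimates and can be fractional, TPM with the bounds of an interval (a signal on the TPM scale, of a level not given), and isoform percent, which is each transcript's percent of the TPM of its gene. The text deposited with each library names mm10 and GENCODE M4. Not given in the sources used here are the aligner, the quantifier, their versions and the use of strand. GENCODE M21, also on mm10, gave symbols, coordinates and coding sequences by Ensembl identifier.

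Counts were rounded and scaled by TMM (edgeR 4.0.16, R 4.3.3) over Ensembl genes whose counts averaged at least 10. Ratios are log2 of pup 2 over pup 1 with 0.5 added, and their counting intervals are exact binomial 95% intervals. Without molecular identifiers, PCR copies count as reads, so these intervals hold counting error alone. Printed folds have no added count. Full-length and truncated forms were set by the stop codon. Left out were spike-in rows (0.00250% of the counts of pup 2, 0.0138% of those of pup 1) and rows named by a number (9.59e-05% in pup 2, 2.65e-05% in pup 1). The lengths behind TPM are those of M4: the full-length Ntrk3 transcript without an insert has 3300 bases there and 19703 in M21, the truncated one 2337 and 3977, and the minor coding Sort1 transcript (ENSMUST00000135636) 1629 and 6836, so reads beyond the shorter ends were not counted for them. The members and gene lists were chosen with earlier results of these data known. Named genes are all members, the 3 most abundant of each pathway list, and its genes over 2-fold apart. Furin, Mmp3 and Mmp7 were named after their values were seen. Ngfrap1 was looked for under its newer name Bex3. Alternatives were DESeq2 1.42.0 size factors, total or spike-in counts, another added count, other minimums, posterior means and TPM. The ratio script was tested on simulated data. The remaining steps ran in python 3.11.15 with scipy 1.17.1, pandas 2.3.3, numpy 2.4.6 and matplotlib 3.10.9.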

Additional observations from a re-analysis of the deposited data

How the results depend on the processing

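With spike-in scaling 6 members lay over 2-fold apart in place of 2, and with a mean count of at least 100 there was 1, since Ntf3 falls under that minimum. Spike-in scaling turned the log2 ratio of Ntf5 to 2.14, of Ntrk2 to 1.74, of Ntrk3 to 1.60, of Ngfr to 0.81 and of Sort1 to 1.94. No other scaling tried turned the sign of a member's ratio. Over all genes, 2949 lay over 2-fold apart, against 18055 with spike-in scaling, 7655 with no minimum and 1267 with a mean count of at least 100. The truncated share of Ntrk3 was 33.0% of coding TPM, 27.3% of expected counts and 24.8% with all transcripts in the denominator. Without each pup in turn it ran from 29.3% to 36.8%, and that of Ntrk2 from 94.3% to 96.6%. Of the members, 4 to 5 reached 1 TPM with 1 pup left out. No paired analysis was possible because there is 1 group. Under 100 counts, as for the 3 ligands, the full-length Ntrk2 form and each Ntrk3 transcript, depth limits what can be told.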

Other observations

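Of the genes that overlap a member in the annotation, 2 are in the tables, both on the opposite strand. Gm9885, antisense to Ntrk3, had 34 counts in pup 2 and 29 in pup 1, and Gm12523, antisense to Sort1, 0 in pup 2 and 5 in pup 1. How strand was used is not given, so reads of Ntrk3 and of Gm9885 may not have been told apart where they overlap.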
